A study of Mus musculus with 6 samples.

Results

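The mitochondrial carrier family Slc25 was followed through bulk mouse liver RNA from 6 libraries. Its members were taken by name, as every row of the deposited count table whose symbol is Slc25a followed by a number, which gave 47 of 35977 rows. One set of livers came from mice given AAV9-Tnnt2-Cre-miR122 (called Cre-miR122, 3 libraries, replicates 1, 2 and 4). The other set came from mice given AAV9-Tnnt2-Cre (called Cre, 3 libraries, replicates 10, 11 and 12). Both vectors are recombinant adeno-associated viruses of serotype 9 that carry Cre recombinase under the Tnnt2 promoter, which is active mainly in heart muscle cells. The Cre-miR122 vector also holds target sites for miR-122, the main microRNA of hepatocytes, and the study asked how that vector affects the liver. The labels give no strain, age, sex, dose or time after injection, and do not say whether the libraries are separate animals, so a p-value here reflects only how these samples scatter, part of which may be technical.

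Slc25 carriers are small proteins that sit, with few exceptions, in the inner mitochondrial membrane and exchange one metabolite for another across it. The family moves ATP, ADP and phosphate for respiration, citrate and malate for gluconeogenesis and lipid synthesis, aspartate, glutamate and ornithine for the urea cycle, acylcarnitines for fatty acid oxidation, and cofactors, iron and glutathione. Liver depends on most of these exchanges, and several members exist as closely related pairs of which one dominates in a given tissue. The proteins are made in the cytosol and enter the membrane through the TOM and TIM22 complexes.

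Total counts ran from 20340994 to 20817837 per library, and the family held 0.345% to 0.372% of them. Hepatocyte markers summed to 139247 to 141676 CPM (counts scaled to library size, here with the TMM correction) in Cre-miR122 livers and 121522 to 146229 CPM in Cre livers. The 7 muscle markers, which include Tnnt2, summed to 0.339 to 2.09 CPM in Cre-miR122 livers and 0.900 to 1.26 CPM in Cre livers, and the heart genes Myl2 and Actc1 had no count in any library. The 4 B cell markers summed to 10.7 to 14.4 CPM in Cre-miR122 livers and 18.5 to 23.7 CPM in Cre livers, without overlap, and the 4 neutrophil markers to 7.20 to 8.78 CPM in Cre-miR122 livers and 9.06 to 11.9 CPM in Cre livers. Any part of these blood cell genes in the carrier values was not tested. Cre replicate 10 stood apart in sex-linked genes, with 1676 counts of the Y-linked Ddx3y and 5 of Xist. Elsewhere Ddx3y had at most 1 count and Xist 15778 to 22413. In bulk tissue, fewer cells of a type and less RNA per cell cannot be told apart.

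By mean level, liver RNA of the family was led by Slc25a5 and Slc25a3, carriers of energy exchange, with Slc25a47 next. Levels between genes are given in TPM (transcripts scaled to a fixed sum per library), computed from the counts and the exon length in the deposited table. Slc25a5, the adenine nucleotide translocase found in most tissues, was at 547, 473 and 485 TPM in Cre-miR122 livers, against 577, 534 and 503 TPM in Cre livers. It had the highest mean of the family over the 6 libraries, 519.7 TPM, and its lowest library lay above the highest library of every other member. Slc25a3, which brings phosphate in beside it for ATP synthesis, was at 400.1, 392 and 394 TPM in Cre-miR122 livers, against 393, 394 and 371 TPM in Cre livers. Slc25a47, a carrier known for its near restriction to liver and with no agreed substrate, was at 351, 332 and 314 TPM in Cre-miR122 livers, against 379.8, 336 and 294 TPM in Cre livers. Slc25a3 and Slc25a47 overlapped in their ranges, and both lay above all members but Slc25a5 in all 6 libraries.

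A plateau of 7 members followed, with means over the 6 libraries of 181 TPM for Slc25a15, 165 TPM for Slc25a20, 164 TPM for Slc25a39, 155 TPM for Slc25a23, 135 TPM for Slc25a4, 131 TPM for Slc25a22 and 116 TPM for Slc25a13. Neighbours in this stretch did not separate beyond their spread over the libraries. These 10 carriers made up 76.6% of the family's summed TPM and were the only ones with a mean of at least 100 TPM. A further 29 members had means between 1 and 100 TPM and 8 had means under 1 TPM. Of the 46 neighbour pairs in the order by mean TPM, 41 overlapped in their 6-library ranges. The gaps without overlap came after Slc25a5, Slc25a47, Slc25a13, Slc25a21 and Slc25a27.

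**Figure D1:**
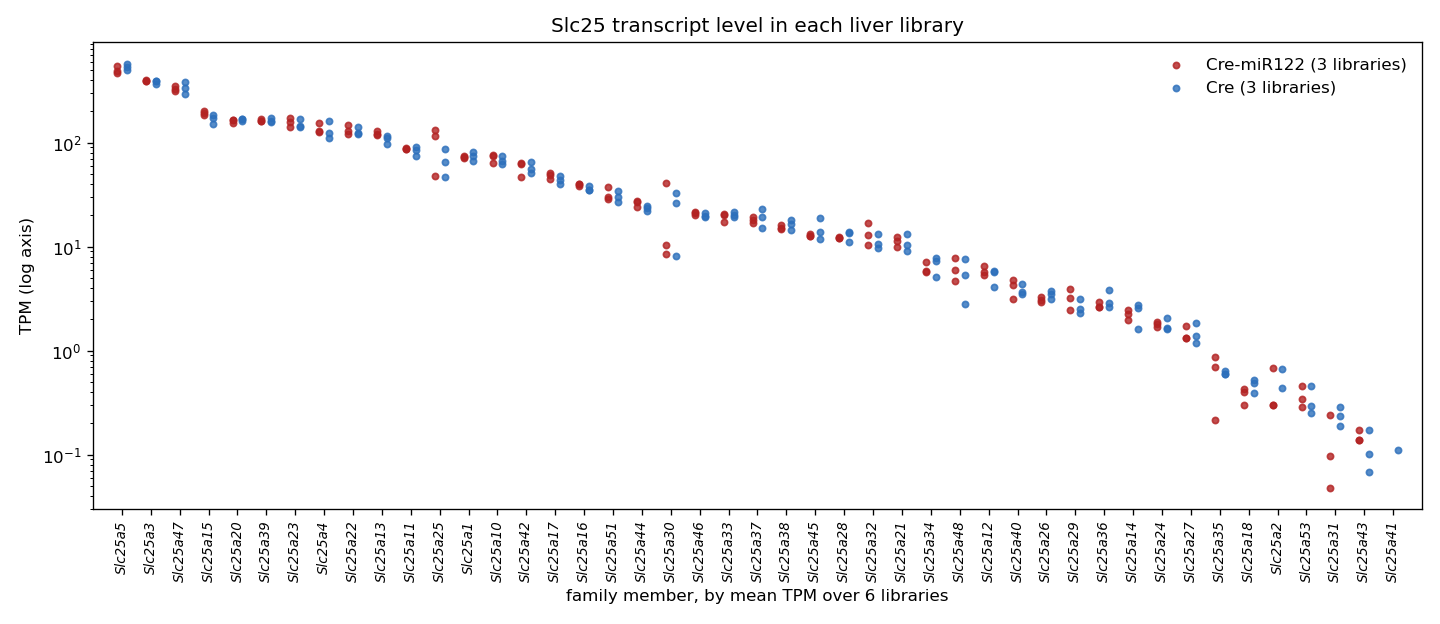
Level of 45 Slc25 members in TPM on a log axis, members ordered by mean over the 6 libraries. Points are single libraries, coloured by vector, and values of 0 are not drawn. Slc25a5, Slc25a3 and Slc25a47 lead, and the ranges of both vectors overlap in all members drawn but Slc25a15 and Slc25a13.

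Members known mainly from other tissues were among those at the foot of the order. Counts of Slc25a31, the testis form of the adenine nucleotide translocase, were 1, 5 and 2 in Cre-miR122 livers, against 4, 5 and 6 in Cre livers. Slc25a2, a second ornithine carrier, had 9, 4 and 4 counts in Cre-miR122 livers, against 0, 6 and 9 in Cre livers. Slc25a43, which has no agreed substrate, had 5, 4 and 4 counts in Cre-miR122 livers, against 2, 3 and 5 in Cre livers. Slc25a41, an ATP-Mg/phosphate carrier, had 3 counts in Cre replicate 11 and none in the other 5 libraries, and Slc25a54 had no count in any library. These 5 were too low to test, and the groups overlapped in each, which left 42 tested members.

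Some of these low genes lie beside abundant ones. Slc25a43, at a mean of 0.131 TPM over the 6 libraries, is the next row of the table upstream of Slc25a5 on the X chromosome. Slc25a41, at 0.0183 TPM, is the next row to Slc25a23 on chromosome 17. Slc25a29, a basic amino acid carrier at 2.92 TPM, lies 13937 bases from Slc25a47 on chromosome 12, with 2 rows between them. In the remaining pair both were low: Slc25a54, with no count, lies 6567 bases from Slc25a24, at 1.79 TPM, on chromosome 3, with 1 row between them.

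The DNA at the gene starts differed between members. RefSeq windows of 300 bases (250 before to 50 after an annotated start, build GRCm38.p6) matched 36 of the 47 members, with 46 windows among 32851 for all genes. A gene with several starts has several windows, and some overlap (as in Slc25a14 and Slc25a23), so a match can be counted more than once. The median GC content was 59.3% in the members' windows and 52.7% in all windows, and the median number of CG dinucleotides was 15 in the members' windows and 7 in all. The GC box GGGCGG, searched on both strands, was found in 38 of 46 member windows (82.6%) and in 35.7% of all windows, which include non-coding genes. The TATA box TATAAA was found in 2 member windows (4.35%) and in 13.6% of all, and the palindrome CACGTG, an E-box, in 8 member windows (17.4%) and in 7.15% of all. CCAAT was found in 22 member windows (47.8%) and in 37.4% of all. Counted by gene, the GC box was in 30 of the 36 members, CCAAT in 19 and the E-box in 7. The NRF1 motif was found in 2 member windows (4.35%) and in 4.60% of all. TGACGTCA, the cyclic AMP response element, was found in 2 member windows (4.35%), of Slc25a25 and Slc25a36, and in 1.79% of all. TCAAGGTCA, an estrogen-related receptor element, was in no member window and in 0.423% of all. No motif contains another, though the E-box and the cyclic AMP response element share the core ACGT, and a match is a string of letters, not a measured site.

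Windows of 4 carriers are printed 5′ to 3′ on the gene's strand, with motif matches in capitals. They are the highest member (Slc25a5, chrX:36795347-36795646, plus strand), the liver-enriched member (Slc25a47, chr12:108850879-108851178, plus strand), and the most variable tested members, Slc25a25 at its start nearest the 3′ end of the gene (chr2:32424017-32424316, minus strand) and Slc25a30 (chr14:75786988-75787287, minus strand). The capitals mark a GC box in reverse in Slc25a5, and CCAAT boxes in reverse with no GC box in Slc25a47. In Slc25a25 they mark the cyclic AMP response element, a CCAAT box in reverse and a GC box, and in Slc25a30 a CCAAT box and a GC box. Other windows of Slc25a25, at chr2:32431102-32431401 and chr2:32451421-32451720, hold no cyclic AMP response element. Which start was used in these livers was not measured.
Slc25a5: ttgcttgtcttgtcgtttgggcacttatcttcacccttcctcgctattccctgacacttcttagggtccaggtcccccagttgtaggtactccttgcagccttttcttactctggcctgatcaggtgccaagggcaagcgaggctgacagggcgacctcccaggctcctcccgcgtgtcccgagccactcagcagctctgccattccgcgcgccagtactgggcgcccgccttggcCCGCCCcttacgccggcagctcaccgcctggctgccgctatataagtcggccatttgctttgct
Slc25a47: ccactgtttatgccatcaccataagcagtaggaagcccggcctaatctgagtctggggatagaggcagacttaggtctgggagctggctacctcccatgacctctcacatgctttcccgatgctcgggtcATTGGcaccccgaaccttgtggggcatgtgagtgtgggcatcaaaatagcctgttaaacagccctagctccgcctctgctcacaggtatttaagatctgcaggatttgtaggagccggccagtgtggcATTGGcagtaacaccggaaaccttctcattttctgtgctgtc
Slc25a25: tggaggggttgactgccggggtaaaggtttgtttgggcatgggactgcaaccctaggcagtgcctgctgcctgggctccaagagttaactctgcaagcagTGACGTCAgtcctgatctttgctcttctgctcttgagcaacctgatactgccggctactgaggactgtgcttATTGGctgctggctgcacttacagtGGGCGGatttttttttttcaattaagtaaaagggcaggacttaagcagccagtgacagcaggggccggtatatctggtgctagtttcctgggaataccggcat
Slc25a30: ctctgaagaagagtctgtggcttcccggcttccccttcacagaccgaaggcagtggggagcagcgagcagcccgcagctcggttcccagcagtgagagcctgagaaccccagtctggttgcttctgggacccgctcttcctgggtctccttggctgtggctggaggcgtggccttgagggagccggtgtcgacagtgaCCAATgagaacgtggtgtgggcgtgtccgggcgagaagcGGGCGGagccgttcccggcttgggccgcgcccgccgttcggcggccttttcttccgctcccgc

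No member of the family passed the test between the vectors. In edgeR's quasi-likelihood test with Benjamini-Hochberg adjustment over 14374 genes, 0 of 42 tested members were called at an adjusted p under 0.05, beside 0% of all genes tested (0 of 14374). The smallest adjusted p was 0.816, and DESeq2 and limma-voom called no member either. At an unadjusted p under 0.05 there were 0 of 42 members, beside 5.41% of all genes (2.76% higher and 2.65% lower). On the CPM scale the groups overlapped in every tested member, where 11.1% of all genes had groups without overlap (5.69% higher and 5.45% lower). On the TPM scale, which has no TMM scaling, 2 members had groups without overlap, Slc25a15 and Slc25a13, beside 10.6% of all genes.

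Fold changes here are Cre-miR122 over Cre on the log2 scale, from the edgeR fit. Of the 42 tested members 21 were above 0 and 21 below, with a median of 0.0045, beside a median of -0.0029 over all genes tested. They ran from -0.33 for Slc25a18 to 0.56 for Slc25a25, and the median size was 0.087, beside 0.110 over all genes. Every one of the 42 intervals (95%) included 0. In 33 of 42 the whole interval lay within 1.5-fold either way, so a larger mean difference lay outside the interval for those members. The intervals reached a median of 0.29 to either side. Summed over the family, the level was 3098, 3004 and 2966 TPM in Cre-miR122 livers, against 3039, 2917 and 2919 TPM in Cre livers, and the sums overlapped.

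**Figure D2:**
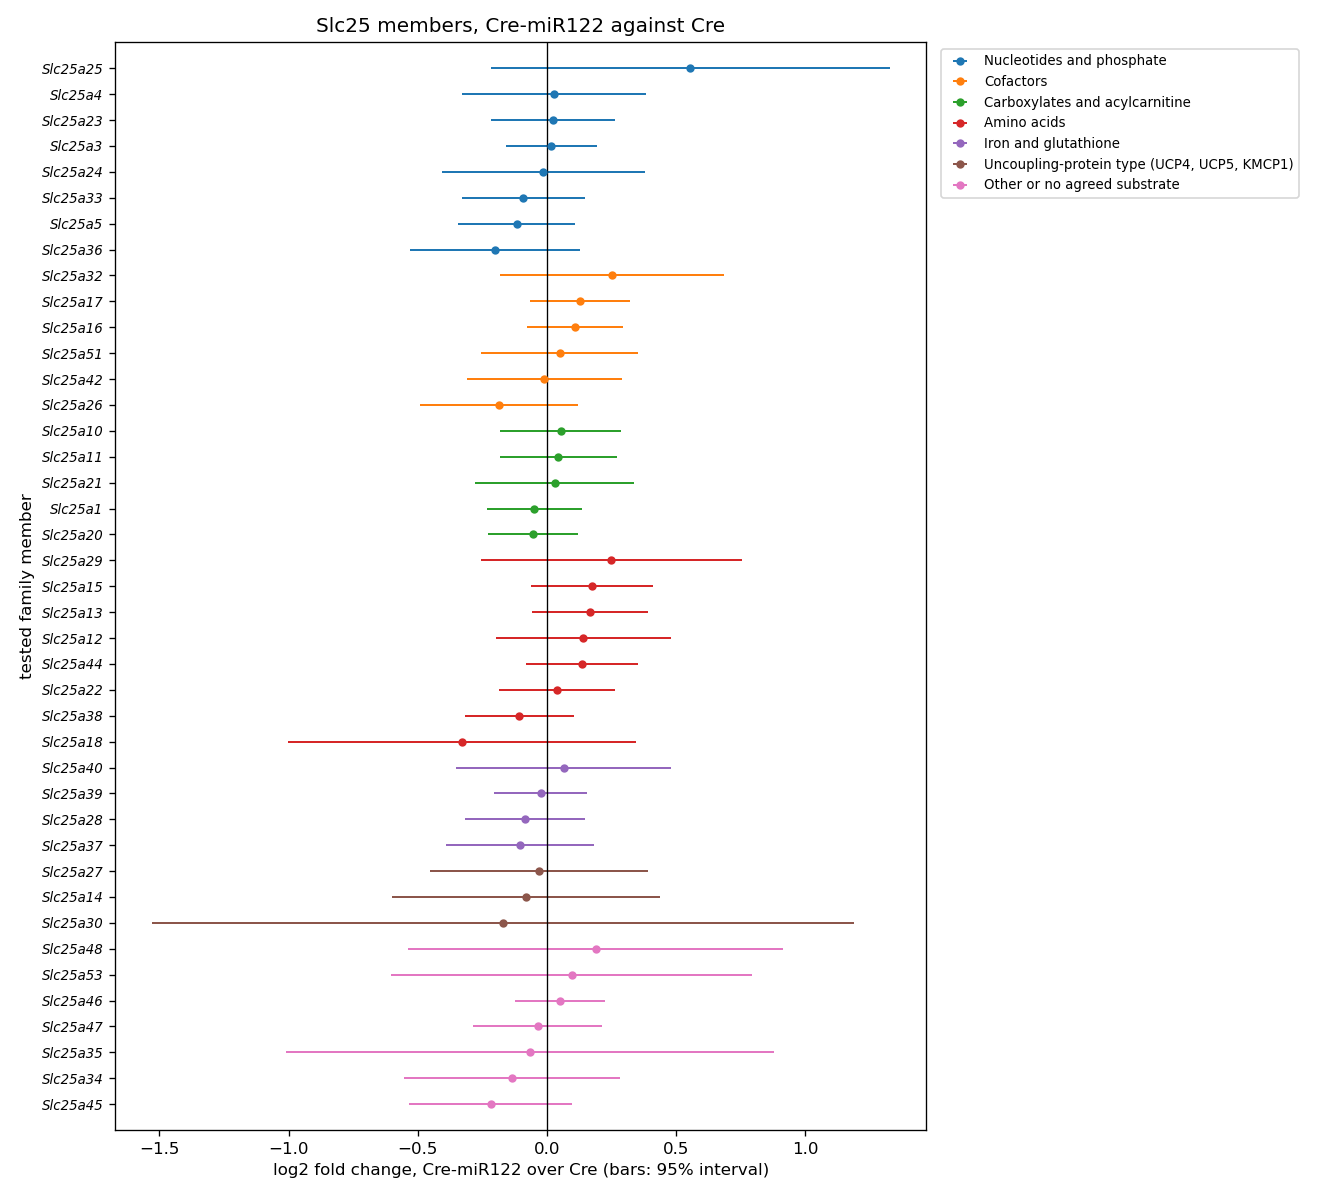
Log2 fold change of 41 of the 42 tested members, Cre-miR122 over Cre, grouped by substrate, with bars for the 95% interval of the edgeR fit. All bars cross 0, and the longest belong to Slc25a30, Slc25a35 and Slc25a25.

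The extremes of the members fell unevenly over the libraries. Cre replicate 11 held the lowest value of 14 tested members and Cre replicate 10 the highest of 11. The same counts over all genes are not given here, so this unevenness is not shown to be particular to the family. The median deviation of the members from their own mean of log2 CPM was 0.057, -0.034 and -0.019 in Cre-miR122 livers, against 0.010, -0.078 and 0.051 in Cre livers. The coefficient of variation (CV, the SD over the mean) of a member over the 6 libraries had a median of 10.8%, beside 11.5% over all genes tested. It was under 10% in 19 tested members and above 25% in 5.

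The adenine nucleotide and phosphate carriers form the first group by role, with 8 of 11 tested, 4 above 0 and 4 below, and a median log2 fold change of 0.0026. Slc25a5 (chrX:36795597-36798808, plus strand) had 350.2, 293 and 300.1 CPM in Cre-miR122 livers, against 373, 326 and 324 CPM in Cre livers. Its highest and lowest libraries were in different groups, with Cre replicate 10 on top, and the groups overlapped. For Slc25a5 the log2 fold change was -0.12 (SE 0.10, adjusted p = 0.828). Slc25a3 (chr10:91116578-91124001, minus strand) had 331, 314 and 315 CPM in Cre-miR122 livers, against 328, 311 and 309 CPM in Cre livers. With a CV of 2.93% it was the steadiest tested member, beside a CV of 1.24% that counting alone would give. For Slc25a3 the log2 fold change was 0.018 (SE 0.078, adjusted p = 0.966), with an interval of -0.16 to 0.19.

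Slc25a4 (chr8:46207339-46211009, minus strand), the adenine nucleotide translocase that dominates in heart and skeletal muscle, had 85.4, 66.9 and 69.1 CPM in Cre-miR122 livers, against 90.3, 58.3 and 68.6 CPM in Cre livers. Cre replicate 10 and Cre-miR122 replicate 1 were high and Cre replicate 11 was low. For Slc25a4 the log2 fold change was 0.028 (SE 0.16, adjusted p = 0.976). Muscle markers were near 0 in these libraries, as given above. Slc25a33 and Slc25a36, both pyrimidine nucleotide carriers, had log2 fold changes of -0.090 (SE 0.11) and -0.20 (SE 0.15). Slc25a36 had 10.4, 8.95 and 9.0 CPM in Cre-miR122 livers, against 10.2, 13.1 and 9.30 CPM in Cre livers, with Cre replicate 11 above the rest (adjusted p = 0.821). Without that library its log2 fold change was -0.046.

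The ATP-Mg/phosphate carriers, most of which calcium activates, set the adenine nucleotide pool of the matrix. Among them Slc25a23 was even and Slc25a25 was not. Slc25a23 (chr17:57043711-57059881, minus strand) had 238, 258 and 284 CPM in Cre-miR122 livers, against 244, 234 and 288 CPM in Cre livers, with overlapping groups. For Slc25a23 the log2 fold change was 0.025 (SE 0.11, adjusted p = 0.966). Slc25a25 (chr2:32414487-32451470, minus strand) had 362, 396 and 142 CPM in Cre-miR122 livers, against 147, 194 and 271 CPM in Cre livers. Cre-miR122 replicates 1 and 2 were the highest of the 6 libraries, Cre-miR122 replicate 4 was the lowest, and the Cre libraries lay between. The mean was 299.9 ± 138 CPM in Cre-miR122 livers and 204 ± 62.4 CPM in Cre livers (SD, n = 3 each).

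Slc25a25 had the largest fold change of the tested members, 0.56 (SE 0.34, adjusted p = 0.816), with an interval of -0.22 to 1.33. Its CV of 43.4% was above that of 97.8% of the genes tested, beside 1.39% from counting alone. With each library left out the log2 fold change ran from 0.30 without Cre-miR122 replicate 2 (unadjusted p of 0.421, adjusted p = 0.970 in edgeR) to 0.89 without Cre-miR122 replicate 4 (unadjusted p of 0.00306, adjusted p = 0.999). It was 0.37 without Cre replicate 10, and its size therefore rested on single libraries of both groups. Slc25a24, the related carrier of proliferating cells, was at 1.79 TPM over the 6 libraries with a log2 fold change of -0.013 (SE 0.17).

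**Figure D3:**
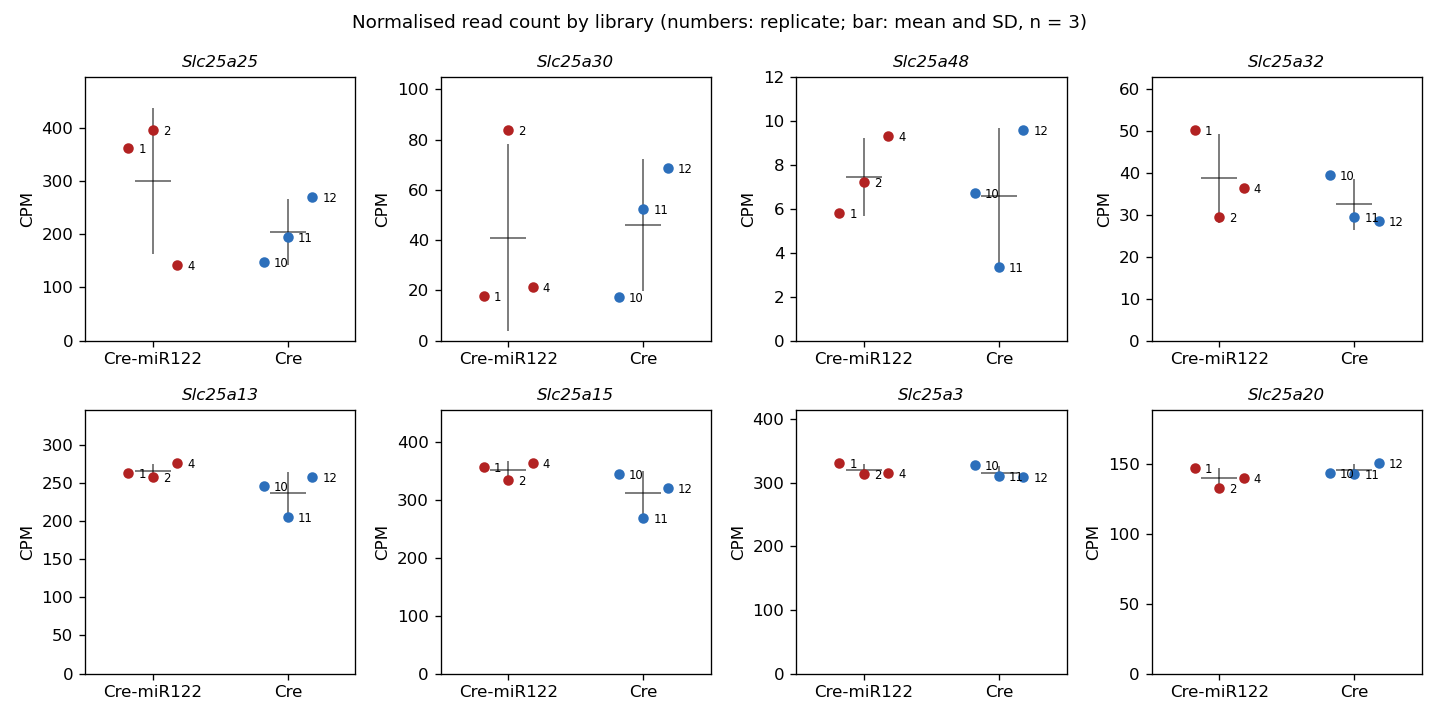
CPM (TMM-scaled) of selected Slc25 members in each library, Cre-miR122 left of Cre, with replicate numbers beside the points, a horizontal bar for the group mean and a vertical line for its SD. Slc25a25 and Slc25a30 spread widely within both groups, and the groups overlap in every panel.

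Amino acid carriers had the highest median of the substrate groups, 0.14, with 6 of 8 tested members above 0, and 0 of 8 at an unadjusted p under 0.05. Slc25a13 (chr6:6041218-6217234, minus strand), citrin, exports aspartate for the urea cycle and the malate-aspartate shuttle. It had 263, 257 and 276 CPM in Cre-miR122 livers, against 245, 205 and 258 CPM in Cre livers. Cre replicate 11 was lowest and Cre replicate 12 lay just inside the range of Cre-miR122. For Slc25a13 the log2 fold change was 0.17 (SE 0.099, adjusted p = 0.816). In TPM it had 119.6, 121 and 130.2 TPM in Cre-miR122 livers, against 111, 98.1 and 117 TPM in Cre livers, where the groups did not overlap.

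Slc25a15 (chr8:22375550-22398621, minus strand), which exchanges ornithine and citrulline in the urea cycle, had 357, 334 and 364 CPM in Cre-miR122 livers, against 345, 268 and 321 CPM in Cre livers. Again Cre replicate 11 was lowest, and Cre replicate 10 lay inside the range of Cre-miR122. For Slc25a15 the log2 fold change was 0.18 (SE 0.10, adjusted p = 0.816). In TPM it had 191, 185 and 202 TPM in Cre-miR122 livers, against 183, 151 and 171 TPM in Cre livers, without overlap. Without Cre replicate 11 the log2 fold changes were 0.075 for Slc25a13 and 0.078 for Slc25a15, and without Cre replicate 10 that of Slc25a15 was 0.26 (unadjusted p of 0.0434, adjusted p = 0.848 in edgeR).

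Cre replicate 11, on which these differences lean, also stood apart in cell type markers. Its 5 hepatocyte markers summed to 121522 CPM, the lowest sum, where the other 5 libraries had 137543 to 146229 CPM. Kupffer cell markers were highest there, at 456 CPM where the others had 301 to 395 CPM, as were B cell markers, at 23.7 CPM. Stellate cell markers were lowest, at 275 CPM where the others had 297 to 346 CPM. The part of these marker shifts in the carrier values was not tested.

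Slc25a22 (chr7:141429749-141437874, minus strand), a glutamate carrier, had 217, 174 and 185 CPM in Cre-miR122 livers, against 179.6, 199 and 182 CPM in Cre livers. Cre-miR122 held both the highest and the lowest library. For Slc25a22 the log2 fold change was 0.039 (SE 0.100, adjusted p = 0.943). Slc25a44 (chr3:88410494-88425141, minus strand), a branched-chain amino acid carrier, had 48.4, 41.1 and 46.1 CPM in Cre-miR122 livers, against 43.8, 37.2 and 42.4 CPM in Cre livers, with overlap. For Slc25a44 the log2 fold change was 0.14 (SE 0.097, adjusted p = 0.819).

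Slc25a38 (chr9:120110399-120124342, plus strand) brings glycine in for haem synthesis and is best known from red cell precursors. It had 28.5, 25.8 and 25.2 CPM in Cre-miR122 livers, against 25.8, 30.5 and 29.2 CPM in Cre livers. Cre replicates 11 and 12 were highest, but Cre replicate 10 lay in the range of Cre-miR122. For Slc25a38 the log2 fold change was -0.11 (SE 0.094, adjusted p = 0.829). The minor forms were lower: over the 6 libraries Slc25a12, the aspartate-glutamate carrier of heart and brain, averaged 5.49 TPM, and Slc25a18, the other glutamate carrier, 0.421 TPM. Their log2 fold changes were 0.14 (SE 0.15) and -0.33 (SE 0.30), and Slc25a29 had 0.25 (SE 0.23).

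The 5 carboxylate and acylcarnitine carriers were all tested and lay between -0.055 and 0.054 on the log2 scale, the narrowest span of the substrate groups, with a median of 0.031. Slc25a20 (chr9:108662098-108684641, plus strand), which carries acylcarnitines in for fatty acid oxidation, had 147, 133 and 139.8 CPM in Cre-miR122 livers, against 143, 142 and 151 CPM in Cre livers. The groups overlapped, with Cre replicate 12 highest. For Slc25a20 the log2 fold change was -0.055 (SE 0.078, adjusted p = 0.894) and the interval, as a fold, ran from 0.853 to 1.09. Slc25a1 (chr16:17925211-17928219, minus strand), the citrate carrier that supplies lipid synthesis, had 58.9, 59.2 and 58.8 CPM in Cre-miR122 livers, against 55.8, 64.4 and 62.7 CPM in Cre livers. The Cre-miR122 libraries lay close together, inside the range of the Cre libraries. For Slc25a1 the log2 fold change was -0.048 (SE 0.082, adjusted p = 0.913). The dicarboxylate carrier Slc25a10, the oxoglutarate carrier Slc25a11 and the oxodicarboxylate carrier Slc25a21 had 0.054, 0.045 and 0.031.

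Cofactor carriers had a median of 0.050, with 4 of 7 tested above 0. Slc25a17 (chr15:81318921-81360765, minus strand), a carrier of peroxisomes for CoA and related nucleotides, had 37.3, 39.4 and 40.4 CPM in Cre-miR122 livers, against 36.3, 38.0 and 32.9 CPM in Cre livers. Cre replicate 12 was lowest and the groups overlapped. For Slc25a17 the log2 fold change was 0.13 (SE 0.086, adjusted p = 0.816). Slc25a26 (chr6:94500012-94604659, plus strand), which brings S-adenosylmethionine in, had 6.23, 6.53 and 5.86 CPM in Cre-miR122 livers, against 7.83, 6.15 and 7.20 CPM in Cre livers. Cre replicate 11 lay inside the range of Cre-miR122, below the other Cre libraries. For Slc25a26 the log2 fold change was -0.18 (SE 0.14, adjusted p = 0.821).

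Slc25a32, a carrier for folate and FAD, had 50.3, 29.4 and 36.5 CPM in Cre-miR122 livers, against 39.5, 29.5 and 28.5 CPM in Cre livers. Cre-miR122 replicate 1 was high and the groups overlapped. For Slc25a32 the log2 fold change was 0.25 (SE 0.19, adjusted p = 0.821), and without Cre-miR122 replicate 2 it was 0.42 (unadjusted p of 0.0421, adjusted p = 0.970 in edgeR). Slc25a16 and Slc25a42 (both tied to CoA) and Slc25a51 (NAD+), had log2 fold changes of 0.11, -0.0090 and 0.050.

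Iron and glutathione carriers had a median of -0.054, with 1 of 4 above 0. Slc25a39 (chr11:102402969-102408675, minus strand), needed for glutathione import, had 218, 209.5 and 219 CPM in Cre-miR122 livers, against 235, 209 and 214 CPM in Cre livers. Its CV was 4.41%, and the log2 fold change was -0.024 (SE 0.081, adjusted p = 0.959). Slc25a37 (chr14:69241848-69285103, minus strand), mitoferrin 1, the iron importer of red cell precursors, had 39.1, 40.4 and 43.0 CPM in Cre-miR122 livers, against 35.4, 51.1 and 45.1 CPM in Cre livers. The Cre libraries held both extremes, replicate 11 on top and replicate 10 at the foot, and all Cre-miR122 libraries lay between. For Slc25a37 the log2 fold change was -0.10 (SE 0.13, adjusted p = 0.875). Without Cre replicate 10 it was -0.24 (unadjusted p of 0.0460, adjusted p = 0.848 in edgeR), and without Cre replicate 11 it was 0.020.

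The 8 erythroid markers summed to 612, 668 and 662 CPM in Cre-miR122 livers, against 409, 596 and 791 CPM in Cre livers. Cre replicate 10 was lowest both in this sum and in Slc25a37, but Cre replicate 11, highest in Slc25a37, had the next lowest sum, and Cre replicate 12 had the highest. The part of red cell RNA in Slc25a37 was not tested. Mitoferrin 2, Slc25a28, was at -0.083 on the log2 scale (SE 0.10), and Slc25a40, the partner of Slc25a39, at 0.066 (SE 0.18).

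Of the carriers of uncoupling-protein type, Slc25a30, known from kidney, was the most variable member of the family that was tested. It had 17.8, 83.8 and 21.1 CPM in Cre-miR122 livers, against 17.2, 52.2 and 68.8 CPM in Cre livers. Cre-miR122 replicate 2 and Cre replicates 11 and 12 were high, the other 3 libraries were low, and each group held libraries of both kinds. The highest library was 4.86 times the lowest, and the CV of 66.6% exceeded that of 99.7% of the genes tested, beside 3.34% from counting alone. For Slc25a30 the log2 fold change was -0.17 (SE 0.60, adjusted p = 0.960), with an interval of -1.53 to 1.19. Without Cre-miR122 replicate 2 it was -1.24 (unadjusted p of 0.0245, adjusted p = 0.970 in edgeR).

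Slc25a14 and Slc25a27, the brain forms of this group, averaged 2.27 and 1.47 TPM over the 6 libraries, with log2 fold changes of -0.081 and -0.030. The interval of Slc25a30 was the widest of the 42, so its mean difference was not resolved at this number of libraries.

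The members with another or no agreed substrate had a median of -0.035, with 3 of 7 tested above 0. Slc25a47 (chr12:108849813-108856815, plus strand) had 298, 272 and 257 CPM in Cre-miR122 livers, against 325, 271 and 251 CPM in Cre livers. Cre held both the highest and the lowest library. For Slc25a47 the log2 fold change was -0.035 (SE 0.11, adjusted p = 0.956). Slc25a45 (chr19:5877799-5885768, plus strand) had 16.0, 16.3 and 15.6 CPM in Cre-miR122 livers, against 15.1, 22.8 and 17.7 CPM in Cre livers. The Cre-miR122 libraries lay close together, while Cre replicate 11 was high and Cre replicate 10 lowest of all. For Slc25a45 the log2 fold change was -0.22 (SE 0.14, adjusted p = 0.816). Without Cre replicate 10 it was -0.34 (unadjusted p of 0.0233, adjusted p = 0.848 in edgeR), and without Cre replicate 11 it was -0.040.

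Slc25a48 had 5.83, 7.20 and 9.34 CPM in Cre-miR122 livers, against 6.74, 3.36 and 9.60 CPM in Cre livers. Cre replicate 11 was lowest and Cre replicate 12 highest, so Cre-miR122 lay inside the Cre range. The CV was 33.1% and the log2 fold change 0.19 (SE 0.32). Slc25a46, an outer membrane member linked to mitochondrial fission, had a CV of 3.92% and a log2 fold change of 0.052. The remaining members, Slc25a34, Slc25a35 and Slc25a53, had log2 fold changes of -0.14, -0.065 and 0.096, with SEs of 0.19, 0.42 and 0.31.

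Related carriers that move the same substrates were also set against each other, as shares of their summed TPM in each library. Slc25a5 made up 78.5 ± 0.600% of the adenine nucleotide translocases in Cre-miR122 livers and 80.2 ± 2.38% in Cre livers (SD, n = 3 each), with Slc25a4 as nearly all of the rest. Citrin, Slc25a13, made up 95.5 ± 0.267% of its pair with Slc25a12 in Cre-miR122 livers and 95.5 ± 0.464% in Cre livers. Slc25a39 held 97.6 ± 0.539% of its pair with Slc25a40 in Cre-miR122 livers and 97.7 ± 0.334% in Cre livers. Slc25a22 and Slc25a15 each held over 99% of their pairs in all 6 libraries, and Slc25a33 held 87.6 ± 0.829% of its pair with Slc25a36 in Cre-miR122 livers and 86.8 ± 2.92% in Cre livers. One form thus dominated each of these sets in both groups.

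The mitoferrins were nearer to even. Slc25a37 made up 58.1%, 60.0% and 60.9% of its pair with Slc25a28 in Cre-miR122 livers, against 52.8%, 62.7% and 63.8% in Cre livers. Slc25a25 made up 45.1%, 45.3% and 21.2% of the ATP-Mg/phosphate carriers in Cre-miR122 livers, against 24.6%, 30.9% and 33.6% in Cre livers, and Slc25a23 made up most of the rest. Shares overlapped between the vectors in every set, and no test was run on them.

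**Figure D4:**
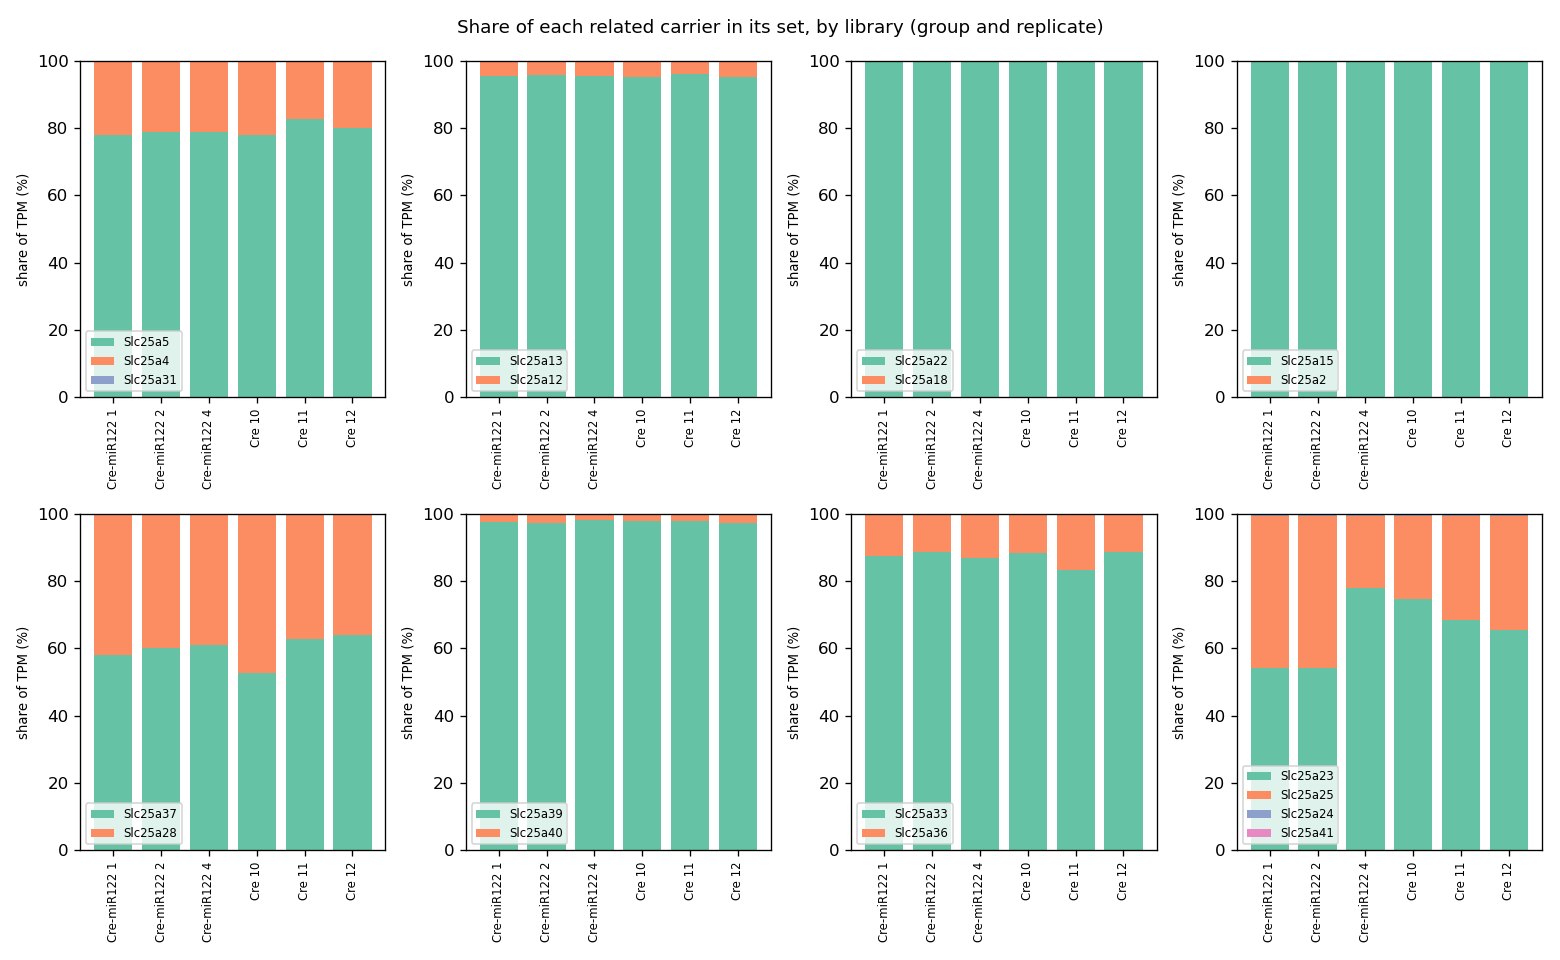
Share of each related carrier in the summed TPM of its set, per library, as stacked bars with Cre-miR122 left of Cre. One member holds the large majority of each set in all 6 libraries except for the mitoferrins (Slc25a37 and Slc25a28) and the ATP-Mg/phosphate carriers, where Slc25a25 takes 21.2% to 45.3%.

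The vectors differ by sites for miR-122, so the same seed site was looked up in the carriers' own messages. The 7 letters ACACTCC, which pair with bases 2 to 8 of miR-122, were found in the longest 3′ UTR (at least 50 bases, GENCODE M21) of 4 of 46 members (8.70%) and of 1807 of 20659 genes (8.75%). These are the sites with their flanks, on build GRCm38, minus strand in each case, with the 7 letters in capitals, or 8 where an A follows that makes an 8-mer. Slc25a27 has 1 at chr17:43642407-43642435 and Slc25a28 has 1 at chr19:43664034-43664062. Slc25a34 has 3, at chr4:141619012-141619040, chr4:141618846-141618874 and chr4:141618836-141618864. The last pair lie so close that each printed line also holds the other site, in lower case within its flank. Slc25a51 has 2, at chr4:45397925-45397953 and chr4:45396944-45396972.
Slc25a27: tctgcagattcACACTCCccccccccccc
Slc25a28: tggctgctggcACACTCCAgtctcaagag
Slc25a34 site a: gggccaacgacACACTCCgagccctctct
Slc25a34 site b: actccagatgaACACTCCtgaacactcca
Slc25a34 site c: aacactcctgaACACTCCAataaagtttt
Slc25a51 site a: gctgtcccactACACTCCAgccttcccag
Slc25a51 site b: ttgttttctttACACTCCgtgcaggtggc

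Slc25a28 had 15.2, 14.5 and 14.9 CPM in Cre-miR122 livers, against 17.0, 16.4 and 13.8 CPM in Cre livers. Slc25a34, with the most sites, had 10.1, 8.08 and 7.98 CPM in Cre-miR122 livers, against 11.2, 6.99 and 10.6 CPM in Cre livers. Slc25a51 had 84.9, 62.7 and 65.6 CPM in Cre-miR122 livers, against 79.0, 65.5 and 61.4 CPM in Cre livers. The groups overlapped in these members as well as in Slc25a27. The log2 fold changes were -0.030 (SE 0.19) for Slc25a27, -0.083 (SE 0.10) for Slc25a28, -0.14 (SE 0.19) for Slc25a34 and 0.050 (SE 0.13) for Slc25a51, with adjusted p of at least 0.877 in edgeR.

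Genes that work with the carriers gave no call either. Of 58 genes with a row in 5 lists, 56 were tested, and 1 of 56 had an unadjusted p under 0.05. It was Timm10b, a chaperone that guides carriers to the TIM22 complex, with 12.2, 12.1 and 11.4 CPM in Cre-miR122 livers, against 14.6, 14.2 and 13.1 CPM in Cre livers. Its groups did not overlap and the log2 fold change was -0.23 (SE 0.096, adjusted p = 0.816). All genes tested gave 5.41% at that p and 11.1% without overlap. Among the 12 tested genes of carrier import, 4 were above 0 and 8 below, with a median of -0.082. Groups did not overlap in 3 of the 12, lower in Timm10b and higher in Tomm70a, a receptor of the outer membrane for carrier precursors, and in Agk, a subunit of the TIM22 complex, with log2 fold changes of 0.13 and 0.19 (adjusted p = 0.816 in edgeR for both). Among 23 other transporters and channels, 13 were above 0 and 10 below, and the smallest p belonged to Crat, carnitine acetyltransferase, with 54.8, 42.6 and 53.8 CPM in Cre-miR122 livers, against 57.6, 61.4 and 59.1 CPM in Cre livers. All Cre-miR122 libraries lay below all Cre libraries, and the log2 fold change was -0.24 (SE 0.10, adjusted p = 0.816). In 1 other gene of the 23 the groups did not overlap, with Cre-miR122 higher: Abcb8, a mitochondrial ABC transporter, at 0.14 (SE 0.081, adjusted p = 0.816 in edgeR).

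The enzymes whose substrates the carriers move had a median of 0.079, with 9 of 11 above 0. Cps1, the first enzyme of the urea cycle, had 4788, 4398 and 4877 CPM in Cre-miR122 livers, against 4368, 2563 and 3987 CPM in Cre livers. The groups did not overlap, which held for 1 of 11 genes of this list, beside 11.1% of all genes tested. The nearest values of the groups were 4398 CPM in Cre-miR122 and 4368 CPM in Cre, and Cre replicate 11 was far below the rest. That library was also lowest for Slc25a13, Slc25a15, Ass1, Got1 and the hepatocyte marker sum, which includes Cps1. For Cps1 the log2 fold change was 0.37 (SE 0.18, adjusted p = 0.816). The relatives of the family outside the name rule, Ucp2, Mtch1 and Mtch2, had 0.037, 0.13 and 0.026, while Ucp1 and Ucp3 were too low to test. Of 7 regulators of mitochondrial biogenesis 6 were above 0, with a median of 0.13. The smallest p among them belonged to Gabpa, a subunit of nuclear respiratory factor 2, at 0.15 (SE 0.075, adjusted p = 0.816 in edgeR). Its groups did not overlap, which held for 1 of the 7, beside 11.1% of all genes tested.

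Some counts can be shared with an overlapping gene, since neither the strand used in counting nor the handling of multi-mapped reads is stated here (not given in the sources used here). Slc25a11 overlaps Rnf167 on the opposite strand, with mean counts of 1715 and 1045. Slc25a26 overlaps Lrig1, with 136 and 698. Slc25a53, with a mean count of 25.8, overlaps Erdr1 with 572, Zcchc18 with 4.17 and, on the same strand, G530011O06Rik with 9.5. Slc25a41 overlaps Khsrp on the same strand, with 0.5 and 1354, so its low level above carries this limit too. The values of these members, of Slc25a35 and of Slc25a29, which also overlap a counted gene, are therefore uncertain, as are those of near-identical copies within the family. Slc25a21, Slc25a25, Slc25a28 and Slc25a44 overlap counted genes too, each with a mean count far below that of the member.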

How the data were processed

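Liver messenger RNA was measured in 6 libraries, grouped by the vector and replicate number in their titles. The deposited table holds raw counts, as whole numbers per gene, and per the submitters' processing notes STAR 2.7.9a, featureCounts 2.0.1 and the build GRCm38 (mm10) were used. Strand and multi-mapping options of the counting were not given in the sources used here. Columns of per-sample values that matched no labelled sample numbered 5 and were not used. Total counts were 20340994 to 20817837 per library, with 11.8% as the common biological coefficient of variation.

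Genes were tested with the quasi-likelihood F test of edgeR 4.0.16 (R 4.3.3), after TMM scaling and filterByExpr, with group as the sole term and Benjamini-Hochberg adjustment over 14374 genes, two-sided, with an adjusted p under 0.05 as the threshold. The contrast was Cre-miR122 minus Cre. Standard errors were derived from the F statistic, and 95% intervals from the degrees of freedom of the fit. CPM used TMM-scaled totals and TPM the exon length in the deposited table. The fit was also tried on simulated counts in which every gene had the same dispersion, which does not cover members as variable as Slc25a30. Alternatives were a scaling by RLE, by upper quartile or by totals alone, a stricter filter and none, DESeq2 1.42.0, voom in limma 3.58.1, robust dispersion, a sex term, leaving out the 10 most abundant genes and leaving out each library.

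The family members and gene lists were chosen with earlier results of these data known, so no list was tested as a set. Values in every library were given for the 5 members with the smallest p in each direction at a mean of at least 1 CPM, the 10 members highest in TPM and a fixed set (Slc25a1, Slc25a4, Slc25a5, Slc25a13, Slc25a15, Slc25a20, Slc25a25, Slc25a37, Slc25a38 and Slc25a47), 19 in all. Other lists were named by their smallest p. Slc25a30, Slc25a32, Slc25a48, Tomm70a, Agk, Abcb8, the seed site members and the members too low to test were named outside that rule after their values were seen. Promoter windows are RefSeq's. Slc25a2 and Slc25a46 lie on chromosome 18, and their sequences are not shown. For 1 tested member no value of its own is reported here, although it is included in the counts and medians.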

Additional observations from a re-analysis of the deposited data

How the results depend on the processing

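No member of the family was called over all genes under any alternative. All genes called numbered 2 with no filter on low counts and 3 in DESeq2, and 0 under the others. Members at an unadjusted p under 0.05 numbered 1 with no filter (Slc25a25), 3 with a sex term (Slc25a15, Slc25a37 and Slc25a45) and 0 to 3 with each library left out. Only Cre replicate 10 stood apart in the sex-linked genes, so the sex term in effect leaves that library out. The fit without Cre replicate 10 gave the same 3 members. Members whose groups did not overlap numbered 1 with no scaling and 2 in TPM, a setting chosen after seeing the data. In TPM 10.6% of all genes had groups without overlap, and that share is not given here for no scaling. Of the other lists, the 1 gene at an unadjusted p under 0.05 became 2 with upper-quartile scaling, with no filter, with a CPM of at least 1 in 3 libraries, in limma-voom, with robust dispersion and without the 10 most abundant genes, 3 with no scaling, 4 with a sex term, and 0 to 5 with each library left out. Over all genes that count was 778, 1169 with no filter, 801 with a sex term and 425 to 1535 with each library left out. The cause was not tested.

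Of the 19 members given in every library, 12 kept the sign of their log2 fold change throughout. With each library left out, their values ran from 0.30 to 0.89 for Slc25a25, 0.075 to 0.24 for Slc25a13, 0.078 to 0.26 for Slc25a15, 0.073 to 0.17 for Slc25a17, 0.069 to 0.20 for Slc25a44, -0.34 to -0.040 for Slc25a45, -0.30 to -0.046 for Slc25a36, -0.28 to -0.10 for Slc25a26, -0.20 to -0.047 for Slc25a5, -0.17 to -0.055 for Slc25a38, -0.093 to -0.019 for Slc25a20 and -0.11 to -0.0074 for Slc25a1. In all 12 leaving out some library moved the value by more than 1.5 times. The 12 include every member that was named for its small p in either direction. That choice favours members whose sign holds, so the count of 12 does not describe the 42 tested members. The other 7 of the 19 changed sign under at least 1 alternative. With no scaling Slc25a3 had -0.0035, and with a sex term Slc25a47 had 0.078, Slc25a39 0.028 and Slc25a23 -0.0068. For these 7 the values with each library left out ran from -0.0070 to 0.046 for Slc25a3, -0.11 to 0.078 for Slc25a47, -0.059 to 0.028 for Slc25a39, -0.044 to 0.12 for Slc25a23, -0.11 to 0.22 for Slc25a4, -0.058 to 0.10 for Slc25a22 and -0.24 to 0.020 for Slc25a37. The family's median ran from -0.043 to 0.017 over the libraries left out. The 10 highest members in TPM were the same 10 with each library left out, and 9 of them were among the 10 highest in CPM.

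With 3 libraries per group the interval of a member reached a median of 0.29 to either side on the log2 scale. No paired analysis was possible because the groups share no replicate number.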

Other observations

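Ppargc1a, a coactivator of mitochondrial biogenesis, was singled out after its values were seen. It had 34.3, 18.9 and 27.1 CPM in Cre-miR122 livers, against 33.3, 17.3 and 22.6 CPM in Cre livers. Slc25a32 had 50.3, 29.4 and 36.5 CPM in Cre-miR122 livers, against 39.5, 29.5 and 28.5 CPM in Cre livers. In both genes Cre-miR122 replicate 1 and Cre replicate 10 were the highest libraries of the 6, and in neither did the groups separate. The same libraries were also highest in Slc25a4, Slc25a5, Slc25a11 and Slc25a47, among others, so this order is not particular to the pair. No test was run on this likeness.

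Sfxn1, a mitochondrial serine carrier outside the Slc25 family that was also singled out after its values were seen, had 118, 82.9 and 104 CPM in Cre-miR122 livers, against 104, 60.9 and 91.0 CPM in Cre livers. Cre replicate 11 was lowest, as it was for 14 of the tested Slc25 members, Slc25a13 and Slc25a15 among them. The share of all genes that were lowest in that library is not given here. For Sfxn1 the log2 fold change was 0.25 (SE 0.19, adjusted p = 0.821) in edgeR.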
